A study of Mus musculus with 22 samples.

Results

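Direct application of cold atmospheric plasma (CAP, an ionized helium jet that delivers reactive oxygen and nitrogen species) for 24 h was compared with no treatment in organoids of the adult mouse duodenum. The comparison holds 7 of the 22 libraries of the series, 3 with direct CAP and 4 untreated, chosen by their labelled treatment. All organoids came from wild-type mice of the outbred CD1 strain, 2 months old by the study's methods, and each line was derived from 1 animal. The lines are numbered 1 to 4 here from the titles of the untreated libraries, and the study numbers its lines otherwise. By the labels, line 1 was at passage 12, line 2 at passage 14 and lines 3 and 4 at passage 4. Xist, the RNA that silences an X chromosome, was at 4 and 7 in the untreated libraries of lines 1 and 2 and at 18979 and 10230 in those of lines 3 and 4, whereas the Y-linked Eif2s3y was at 714 and 1018 and at 12 and 0. Lines 1, 2 and 4 gave 1 library each after direct CAP, while the untreated group also holds line 3. The plasma ran at 50 W for 60 s on cultures at day 1 after replating, the medium was replaced 24 h later, and the study's scheme collects the cultures at day 3. The untreated libraries carry the label of no treatment, and a control with gas alone was not analysed here. Replicates are therefore separate animals, but a group of 3 or 4 lines grown in culture limits what the spread can show.

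The intestinal epithelium renews itself from crypt base columnar stem cells, which depend on Wnt and Notch signals and sit between Paneth cells, the makers of antimicrobial peptides. Their daughters divide several times and then become absorptive enterocytes or secretory goblet, enteroendocrine, tuft and Paneth cells. After injury the epithelium can lose its stem cell markers for a time and take on genes of the fetal gut. Cells under oxidative or amino acid stress use further programmes, among them the integrated stress response through ATF4, the NRF2 response to oxidants, and the p53 response to DNA damage.

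The deposited value of a gene in a library is a read count scaled by the authors to 20 M reads per library and rounded up, not divided by gene length, so it compares libraries but not genes. Below, untreated values are given in the order of lines 1, 2, 3 and 4 and values after direct CAP in the order of lines 1, 2 and 4. A log2 fold change is that of direct CAP minus untreated on the scale log2(value + 1), which understates the change of low genes, with its standard error (SE) and the Benjamini-Hochberg adjusted p of limma over all genes tested. A gene rose or fell when the adjusted p was under 0.01 and the log2 fold change at least 1 in size, the study's threshold. A looser reading, an adjusted p under 0.05 at any fold, is named as such.

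Between 20.7 and 26.0 M reads lay behind each untreated library and between 22.1 and 23.2 M behind each library with direct CAP, as estimated from the spacing of the low values. The labels call the cells stem cells, but the libraries are of whole organoids, and all 12 markers of intestinal epithelium were measured. Their summed value ranged from 176647 to 189224 in the untreated libraries and from 222549 to 270443 after direct CAP, with Krt8, Krt18 and Krt19 higher and Epcam lower at an adjusted p under 0.05. Of 16 markers of fibroblasts, muscle and endothelium, 11 stayed under 10 in all 7 libraries and Lum was at 0, and the sum of the list was 59 to 125 untreated and 74 to 120 after direct CAP. The 16 leukocyte markers summed to 1034 to 1767 and 557 to 1093. That sum is mostly Kit, Csf1r, Lyz2 and Cd68, of which Cd68 was higher at an adjusted p of 0.0166, Nkg7 was at 0, and 9 stayed under 10. The 10 neural markers summed to 196 to 307 and 110 to 267, with 1 of them at 0 and Tubb3 lower at an adjusted p of 0.0278. Whether these small sums play a part in any result below was not tested.

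The line labels of 2 untreated libraries went against the data. In the treated libraries of the series 4 genes (Hoxb2, Dpp4, Itih5 and Zfp951) separated line 1 from line 2 by at least 4-fold, and in 4 of 4 the untreated library labelled line 1 lay on the side of line 2 and the library labelled line 2 on the side of line 1. The untreated library of line 4 matched its own line. The unpaired comparison used here does not use the line labels. Results are nevertheless given also without both doubted libraries, which leaves 2 untreated libraries against 3.

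Of 17335 genes tested, 376 were past the threshold (2.17%). The 217 that rose are 1.25% of the genes tested and the 159 that fell 0.917%, a split that median-of-ratios scaling turned into 264 and 128. At the looser level 2995 genes (17.3%) differed, 1222 higher (7.05%) and 1773 lower (10.2%). Scaling decided which direction was the larger at this looser level, since quantile normalization gave 1446 higher and 1596 lower, and median-of-ratios scaling 1507 higher and 1224 lower. The groups did not overlap for 5327 genes (30.7%), 2008 of them higher (11.6%) and 3319 lower (19.1%), and all 376 genes past the threshold were among these. Before adjustment 5658 of the 17335 genes had a limma p under 0.05, against which unadjusted counts in the lists are read. Without the doubted untreated libraries 0 genes passed (258 reached an adjusted p under 0.05 and 3690 an unadjusted one). Of the 367 called genes still tested, 343 had a log2 change no smaller than 1 in size. Their direction could not reverse, since leaving out libraries cannot make groups overlap that were apart.

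**Figure D1:**
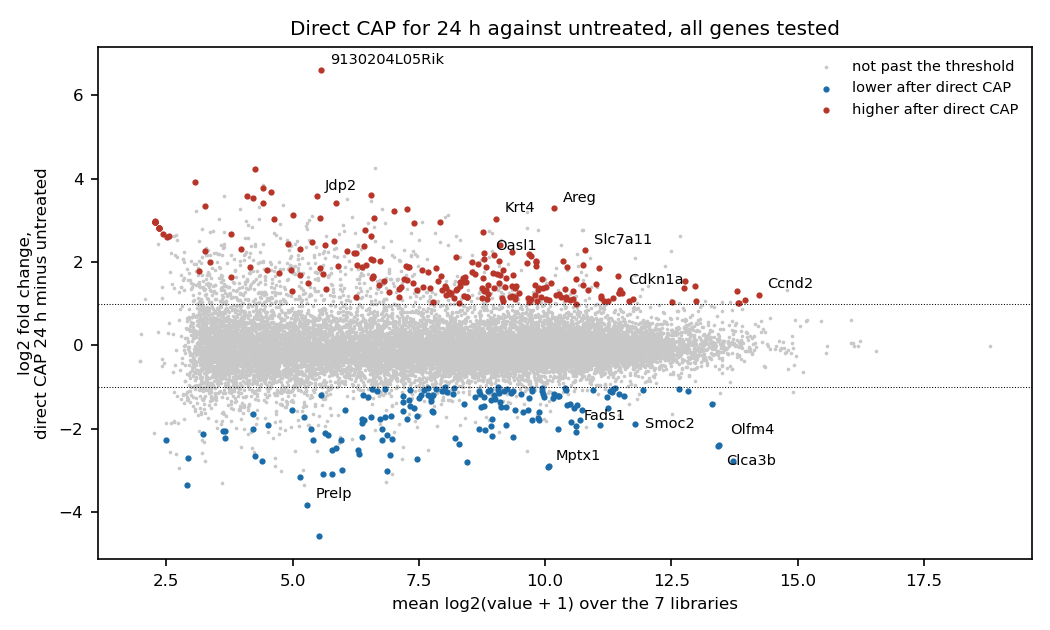
Each point is 1 of the 17335 genes tested, with its mean log2(value + 1) over the 7 libraries on the x axis and its log2 fold change (direct CAP for 24 h minus untreated) on the y axis. Red points mark the 217 genes that rose, blue points the 159 that fell, and dotted lines a log2 fold change of 1 either way.

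Among genes past the threshold, the largest rise was that of 9130204L05Rik, a gene with no established function. Its values were 1, 4, 9 and 19 untreated and 342, 562 and 1418 after direct CAP, a log2 fold change of 6.60 with an SE of 0.77 and an adjusted p of 0.0032. Line 4 was the highest in both groups, and the groups were far apart. Other large rises were those of Jdp2, an AP-1 family repressor, Slc7a3, a transporter of cationic amino acids, and Nt5e, the surface enzyme that makes adenosine from AMP. Slc7a3 went from 4, 3, 9 and 5 to 65, 59 and 87, and Nt5e from 16, 27, 46 and 46 to 308, 322 and 603. Both sets of values were apart by a wide margin in every line. Dsg3, a desmosomal cadherin of stratified epithelia, rose from 2, 5, 20 and 10 to 77, 101 and 135, although the untreated values are at the limit of what the depth resolves.

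Among the larger falls, Prelp, a leucine-rich proteoglycan of the matrix, went from 185, 129, 125 and 70 to 10, 18 and 2, a log2 fold change of -3.82 with an SE of 0.60 and an adjusted p of 0.00657. Dpysl5, a member of the collapsin response mediators, fell from 114, 56, 104 and 96 to 11, 13 and 5. AY761184, a gene of the alpha-defensin family, fell from 124, 104, 154 and 107 to 20, 16 and 7. In all of these the highest treated value belonged to line 1 or line 2 and the lowest to line 4. Hook1, a cargo adaptor of microtubule transport that was picked out after its values were seen, shared the lowest adjusted p of the comparison (0.000755), with values of 15741, 15260, 16228 and 14188 untreated and 5697, 6340 and 5424 treated.

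Gene lists are described by the role of their members, each with its count and its median. Lists and members were chosen with earlier results of these data known. Some members, as in the NRF2 and fetal lists, are genes the study reports as changed in these libraries. A share above that of all genes may therefore be partly built in. Lists also share members, so their counts are not independent. Past the threshold, Dsg3, Areg and Ccnd2 are on the fetal list and, in that order, on the desmosome, EGF and G1 lists. Plk3, Cdkn1a and Trp53inp2 are on the p53 list and, in that order, on the immediate early, G1 and autophagy lists. Nt5e is on the enterocyte and Hippo-YAP lists. Over all genes tested the log2 fold change had a median of -0.0788, against which the list medians are read.

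**Figure D2:**
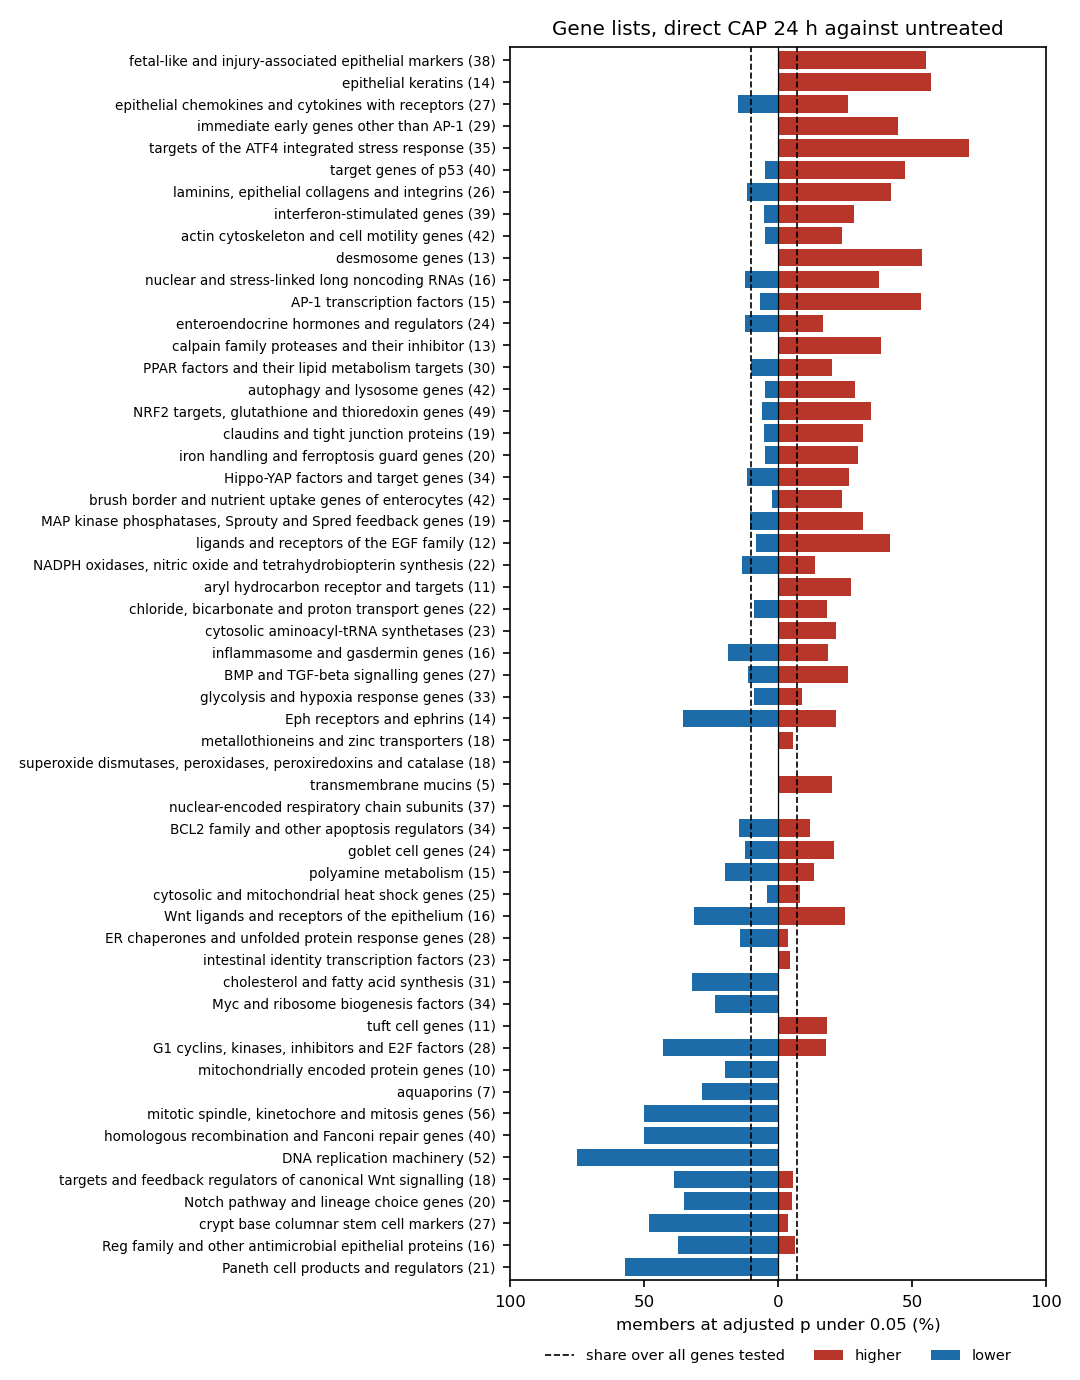
Bars give, for each gene list with the number of members tested in brackets, the percentage of members higher (red, to the right) or lower (blue, to the left) after direct CAP at an adjusted p under 0.05, ordered by median log2 fold change. Dashed lines mark the shares over all genes tested, 7.05% higher and 10.2% lower. DNA replication genes reach furthest to the left, with 39 of 52, and ATF4 targets furthest to the right, with 25 of 35.

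Stem cell markers were lower after direct CAP. Of 28 listed, 27 passed the filter on low values, 6 fell and 0 rose past the threshold, and at an adjusted p under 0.05 13 were lower and 1, Prom1, higher, with a median log2 fold change of -0.84. Olfm4 (chr14:79984081-80023139, plus strand, build GRCm38), a secreted glycoprotein of crypt base cells, fell from 22768, 20867, 25431 and 22333 to 4979, 5417 and 3058, a log2 fold change of -2.39 with an SE of 0.19 and an adjusted p of 0.00105. The untreated values lay close together, and all treated values were far below them. Clca3b, a chloride channel accessory gene, fell from 27190, 17543, 25593 and 21428 to 3961, 5866 and 3261, and Smoc2, a calcium-binding matrix protein, from 6606, 5841, 5705 and 6510 to 1924, 2152 and 1107. In these 3 genes the treated library of line 4 was the lowest and that of line 2 the highest. Rgmb, a BMP co-receptor, Cdca7, a chromatin factor of cycling cells, and Gkn3, a gastrokine of stem cells, also fell, with log2 fold changes of -1.44, -1.42 and -2.10. Blocking on the organoid line by its label gave adjusted p of 0.0107 for Cdca7 and 0.0111 for Gkn3, both just outside the threshold, and 4 genes of the list in place of 6.

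Lgr5, the R-spondin receptor that defines these stem cells, had values of 2822, 1305, 1816 and 1281 untreated and 354, 548 and 128 after direct CAP. The groups did not overlap and the log2 fold change was -2.55 (SE 0.47), but the adjusted p was 0.0109, just outside the threshold. Axin2, a negative feedback regulator of Wnt signalling, stood at 5951, 4158, 4349 and 4316 and 1644, 2343 and 798 with an adjusted p of 0.0119, and Aqp4, a water channel, at 2484, 1309, 1704 and 1577 and 372, 873 and 387 with an adjusted p of 0.0101. Hopx, a marker of slowly cycling cells, did overlap, with 2371, 2394, 2845 and 2693 untreated and 1899, 1814 and 2774 treated. In this bulk RNA, fewer cells of a type and less RNA per cell cannot be told apart.

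Among 18 Wnt targets and feedback genes tested, limma called 0 lower, 7 were lower at an adjusted p under 0.05 (11 at an unadjusted p under 0.05, median -0.67), and Ccnd1 rose. Ccnd1, the G1 cyclin D1, went from 4072, 3778, 4665 and 4680 to 10951, 6333 and 9786, lowest of the treated in line 2. In the list of Wnt ligands and receptors 5 of 16 were lower and 4 higher, and Fzd2, a Wnt receptor, fell from 269, 165, 160 and 181 to 63, 71 and 41. In the Notch and lineage list 7 of 20 were lower at an adjusted p under 0.05 and 1 was higher. Neurog3, the factor that commits cells to the enteroendocrine fate, was the one that fell, from 370, 304, 383 and 368 to 115, 167 and 82, with an adjusted p of 0.00485. No overlap was seen in any of these 3 genes. With 1 library left out the count of 7 Wnt targets became 4 (without untreated line 1) to 9, and that of 7 Notch genes 5 to 11. Both were highest without direct CAP line 2, and 0 members of either were lower at this level without the doubted libraries. With the organoid line as a block (the pairing by label, described with the processing) the adjusted p of Neurog3 was 0.0135.

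Paneth cell products were lower as a group. Of 21 tested among 23 listed, 5 fell and 0 rose, and 12 were lower and 0 higher at an adjusted p under 0.05, with a median of -1.11. Mptx1 (chr1:174330518-174332873, plus strand), a pentraxin of the small intestine, fell from 3548, 1886, 3000 and 1996 to 221, 586 and 286, a log2 fold change of -2.91 with an SE of 0.34 and an adjusted p of 0.00328, and its relative Mptx2 from 1060, 551, 1408 and 511 to 87, 196 and 87. Defa24, an alpha-defensin, went from 5842, 5262, 4803 and 5703 to 2524, 3006 and 2234. Itln1, a lectin that binds microbial sugars, went from 10963, 9370, 8393 and 11600 to 4092, 5485 and 4635, with no overlap. Lyz1, the lysozyme of Paneth cells, stood at 20706, 17237, 15293 and 15122 untreated and 9830, 13081 and 6068 treated (adjusted p 0.0396), and Mmp7, the protease that activates defensins, had a log2 fold change of 0.27 with an adjusted p of 0.618. Defa17, with a log2 fold change of -1.11, is the other that fell. The alpha-defensin genes are near copies of each other, so reads may have been split among them.

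Without the doubted untreated libraries, 5 of 26 stem cell genes and 2 of 20 Paneth genes were lower at an adjusted p under 0.05, with a median of -0.78 for the former. Leaving out 1 library at a time gave 11 to 15 and 6 to 14, the lowest Paneth count without direct CAP line 1.

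**Figure D3:**
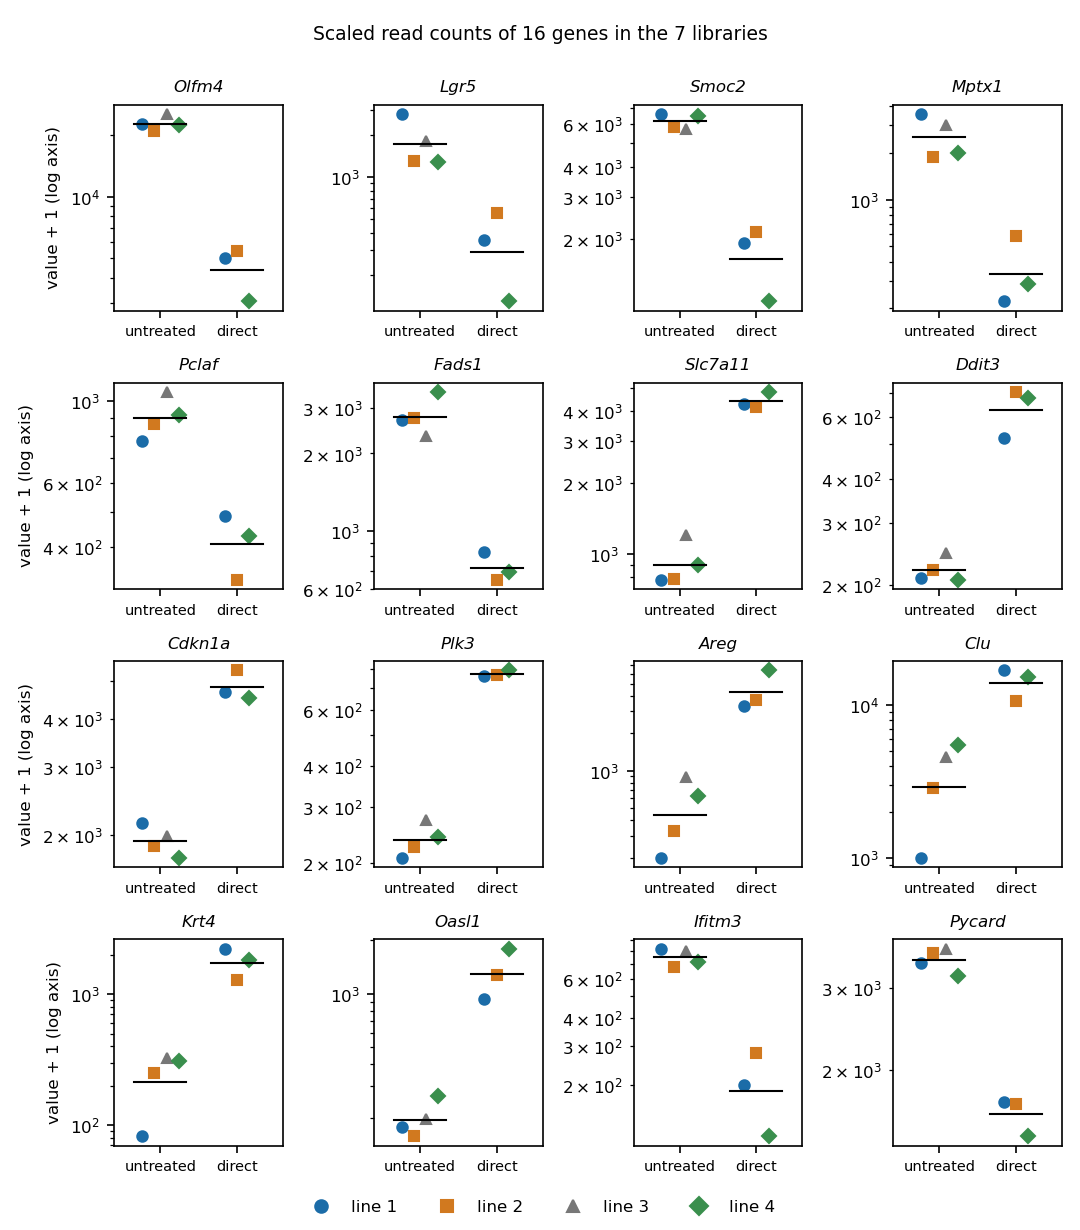
Each panel plots value + 1 on a log axis for 1 gene, with a point for each of the 4 untreated and 3 direct CAP libraries (colour and shape give the organoid line) and a bar at the geometric mean. The panels show the fall of Olfm4, Smoc2, Mptx1, Pclaf, Fads1, Ifitm3 and Pycard, the rise of Slc7a11, Ddit3, Cdkn1a, Plk3, Areg, Krt4 and Oasl1, and the values of Lgr5 and Clu, which did not pass the threshold. The groups are apart in all 16, as they are in every gene past the threshold and in 30.7% of all genes tested.

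The other differentiated lineages moved less uniformly. In the goblet list 5 of 24 genes were higher and 3 lower at an adjusted p under 0.05. Sytl2, an effector of vesicle docking, rose from 737, 558, 750 and 737 to 1301, 1501 and 1843, and Ccl9, a chemokine, fell from 619, 509, 708 and 489 to 111, 189 and 86. Muc2, the gel-forming mucin, overlapped between the groups (11810, 4266, 4217 and 6967 and 8927, 21096 and 5832), with line 2 highest after direct CAP. Of 24 enteroendocrine genes 4 were higher and 3 lower. Cpe, the carboxypeptidase that matures peptide hormones, rose from 188, 203, 204 and 260 to 531, 442 and 965, while Chga, the granin of secretory granules, had a log2 fold change of 1.18 and an adjusted p of 0.0948. Ptgs1, a cyclooxygenase used here as a tuft cell gene, rose from 23, 44, 27 and 67 to 256, 133 and 486. The counts were unstable, with 8 goblet genes lower without direct CAP line 2 and 1 enteroendocrine gene higher in each of 5 fits that leave out 1 library. Blocking by line gave 7 enteroendocrine genes higher and 1 lower.

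Enterocyte genes included 4 that rose and 0 that fell among 42 tested, and 10 higher and 1 lower at an adjusted p under 0.05, with a median of 0.19. Direct CAP line 2 decided the sign of that median, which was -0.0996 without it, with 10 members higher and 6 lower. The list level (mean log2 of members, relative to the untreated mean) was 0.81 in that library, against 0.0193 in line 1 and 0.229 in line 4. Cdhr2, a cadherin of the brush border, went from 9850, 12441, 9849 and 11572 to 20066, 23035 and 22921 and had a log2 fold change of 0.967 in the block by line, under the fold that the threshold asks for. Tm4sf4, a tetraspanin-like membrane protein, went from 2725, 4968, 5305 and 5213 to 12208, 11823 and 14620, and Ada, adenosine deaminase, from 250, 241, 406 and 327 to 817, 721 and 1660. Neither of these overlapped, and line 4 was highest after direct CAP in the last. Sis, sucrase-isomaltase, did overlap, with 32230, 33758, 27677 and 32758 and 22848, 47838 and 19972. Of 23 identity factors of the intestine limma called 0 (4 at an unadjusted p under 0.05), and Hnf4a, their hepatocyte nuclear factor, stood at 20196, 18697, 17760 and 18232 and 15821, 17518 and 15795 with an adjusted p of 0.202, while Klf5 stood at 7326, 7254, 6524 and 7378 and 7759, 8331 and 7227.

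Genes of DNA replication were lower. All 52 listed were tested, all 52 had a negative log2 fold change (median -0.64), 39 were lower at an adjusted p under 0.05, and 2 fell past the threshold. Ung, uracil-DNA glycosylase, fell from 719, 580, 639 and 632 to 314, 311 and 202, and Pclaf, the clamp-associated factor, from 776, 862, 1054 and 914 to 486, 326 and 428, in both cases with no overlap. Mcm6, a subunit of the replicative helicase, had a log2 fold change of -0.64 with an SE of 0.10 and an adjusted p of 0.00643, below the fold the threshold asks for. Of 56 mitosis genes 28 were lower at an adjusted p under 0.05 and 42 at an unadjusted one, and 0 fell past the threshold, with a median of -0.47. Mki67, the proliferation antigen, stood at 11723, 8402, 8959 and 8756 and 7798, 6920 and 4710 (adjusted p 0.0697), and Top2a, topoisomerase II, at 7095, 5115, 6217 and 6571 and 4392, 4179 and 3709 (adjusted p 0.015).

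Homologous recombination and Fanconi genes were lower in 20 of 40 at an adjusted p under 0.05, with Usp49, a deubiquitinase, falling from 1499, 1126, 1461 and 1368 to 652, 782 and 492. Hmga2, an architectural chromatin protein, stood at 414, 359, 361 and 319 and 188, 193 and 99 with an adjusted p of 0.0119. Among 28 genes of the G1 list 12 were lower and 5 higher. E2f8, an atypical E2F repressor, fell from 1317, 1058, 1126 and 1222 to 615, 619 and 447, whereas Ccnd2, cyclin D2, rose from 10559, 12339, 16417 and 14863 to 33614, 27245 and 32785. Of 34 Myc and ribosome biogenesis genes 8 were lower and 0 higher, and Mycl, the L-Myc factor, fell from 2047, 1321, 1405 and 1406 to 478, 688 and 373. The 3 lists of replication, mitosis and repair genes had 6, 1 and 2 members lower at an adjusted p under 0.05 without the doubted libraries, with medians of -0.65, -0.50 and -0.53, and 22 to 34, 12 to 26 and 10 to 13 with 1 library left out. The lowest of these counts came without untreated line 4, for mitosis and repair also without untreated line 3. Blocking by line gave 29, 16 and 9, and put Pclaf (0.0119) and Usp49 (0.0171) outside the threshold.

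E2F factors drive many replication genes, and their site was sought in promoters as TTTCCCGC or TTTGGCGC on either strand. The windows run from 250 bases before to 50 after the start in RefSeq's table for GRCm38.p6. Of 42 replication genes with a promoter there, 15 held the motif (35.7%). The share was 1.80% over all 27025 genes in that table, 1 chromosome left out, and 3.21% over the tested genes found there. The 4 members shown have the lowest adjusted p among those with a match before the start. Capitals mark the motif, letters run 5′ to 3′ on the gene's strand, and the windows lie at chrX:93632240-93632339 (Pola1, minus strand), chr1:128359762-128359861 (Mcm6, minus strand), chr1:191575545-191575598 (Dtl, minus strand) and chr8:75109314-75109413 (Mcm5, plus strand).
Pola1 promoter: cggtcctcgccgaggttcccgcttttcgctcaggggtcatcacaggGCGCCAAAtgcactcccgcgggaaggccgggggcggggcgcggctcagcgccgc
Mcm6 promoter: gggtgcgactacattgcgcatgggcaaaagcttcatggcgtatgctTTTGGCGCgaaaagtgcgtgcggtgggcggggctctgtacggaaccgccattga
Dtl promoter: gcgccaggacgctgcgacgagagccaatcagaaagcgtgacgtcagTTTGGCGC
Mcm5 promoter: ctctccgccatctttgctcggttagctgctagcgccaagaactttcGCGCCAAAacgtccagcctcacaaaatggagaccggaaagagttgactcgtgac
Their log2 fold changes were -0.84 for Pola1, the DNA polymerase alpha subunit, -0.64 for Mcm6, -0.94 for Dtl, a ubiquitin ligase adaptor, and -0.60 for Mcm5, each with adjusted p of 0.00586, 0.00643, 0.00665 and 0.0117. A match is a description of the letters and shows no binding.

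Targets of the ATF4 integrated stress response, the pathway that answers amino acid shortage and endoplasmic reticulum stress, made up the list with the largest share of members that rose. Of 35 tested 13 rose and 0 fell, and 25 were higher and 0 lower at an adjusted p under 0.05, with a median of 0.63. Slc7a11 (chr3:49892526-50443614, minus strand), the cystine importer that feeds glutathione synthesis, went from 779, 784, 1206 and 895 to 4306, 4148 and 4809, a log2 fold change of 2.29 with an SE of 0.16 and an adjusted p of 0.000755. All treated values were far above the highest untreated one and varied little. Aldh1l2, a mitochondrial folate enzyme, rose from 99, 94, 70 and 151 to 703, 945 and 729, Gpt2, a mitochondrial alanine transaminase, from 402, 379, 343 and 448 to 899, 1129 and 1073, and Ddit3, which encodes the stress factor CHOP, from 208, 220, 246 and 206 to 519, 702 and 675. Chac1, a glutathione-degrading enzyme, rose from 157, 173, 132 and 180 to 583, 1042 and 546, highest in line 2.

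Gdf15, a stress cytokine, Trib3, a pseudokinase, Slc6a9, a glycine transporter, Vldlr, a lipoprotein receptor, Atf3 and Atf5, stress factors, and Sesn2, an amino acid sensor, also rose, with log2 fold changes from 1.12 (Sesn2) to 2.21 (Trib3). Slc7a3, described above, had the largest of the list. Nupr1, a stress-induced chromatin protein, stood at 204, 194, 219 and 539 untreated and 733, 674 and 1449 treated with an adjusted p of 0.0206, and the untreated library of line 4 stood apart from the other 3. Atf4 itself had a log2 fold change of 0.19 with an adjusted p of 0.312. The call of 25 became 17 to 22 when 1 library was left out and 10 without the doubted libraries, with medians of 0.60 to 0.69 and 0.71. With the block by line it was 19, and Nupr1 passed the threshold (0.00357) while Atf3 (0.0101) and Atf5 (0.0106) did not.

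Neighbouring programmes of protein folding and synthesis moved little. Of 28 chaperone and unfolded protein response genes 1 was higher and 4 lower at an adjusted p under 0.05, with a median of -0.16, and P4hb, protein disulfide isomerase, stood at 27056, 31207, 27730 and 25251 and 25420, 30501 and 24425. Of 23 cytosolic tRNA synthetases 5 were higher, each by less than the threshold asks, with Nars, for asparagine, at 4523, 4323, 4456 and 4687 and 5705, 6363 and 5919. Of 25 heat shock genes 2 were higher and 1 lower. The 5 tRNA synthetases became 3 or 4 with 1 library left out, 2 in the block by line and 0 without the doubted libraries.

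ATF4 binds composite elements in the promoters of several of these genes. The letters TTGCATCA or TGATGCAA, which are each other's reverse complement, were found in 6 of the 30 list members with a promoter there (20.0%). The share was 1.03% over all genes with a promoter there and 0.767% over the tested ones. The 5 genes shown are those past the threshold with the motif before the start, Jdp2 being no member of the list. Since promoters were found for fewer than 80% of the called genes, no share over the called genes is given. Capitals mark the motif in the windows at chr3:50443614-50443725 (Slc7a11, minus strand), chr2:119351003-119351102 (Chac1, plus strand), chr12:85599337-85599415 (Jdp2, plus strand), chr1:191183390-191183489 (Atf3, minus strand) and chr19:27216774-27216873 (Vldlr, plus strand).
Slc7a11 promoter: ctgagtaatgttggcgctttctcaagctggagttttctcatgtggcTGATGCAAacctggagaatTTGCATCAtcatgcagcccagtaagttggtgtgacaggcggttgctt
Chac1 promoter: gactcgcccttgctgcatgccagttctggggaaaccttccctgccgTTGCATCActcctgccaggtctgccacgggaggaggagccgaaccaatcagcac
Jdp2 promoter: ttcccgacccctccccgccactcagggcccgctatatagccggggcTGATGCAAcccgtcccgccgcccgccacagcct
Atf3 promoter: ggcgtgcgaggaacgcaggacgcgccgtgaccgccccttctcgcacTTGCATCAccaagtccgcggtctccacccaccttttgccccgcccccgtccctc
Vldlr promoter: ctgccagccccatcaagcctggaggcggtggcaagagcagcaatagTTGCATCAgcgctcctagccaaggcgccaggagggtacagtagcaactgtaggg
The Slc7a11 window holds the motif in both orientations, 66 and 47 bases before the start. The log2 fold changes were 2.29, 2.11, 3.58, 1.57 and 1.90 in that order. Atf3 had values of 101, 83, 106 and 93 untreated and 260, 388 and 231 treated, and Jdp2 6, 16, 17 and 25 and 156, 191 and 204, without overlap in either.

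Target genes of p53, the factor activated by DNA damage, were higher in 19 of 40 at an adjusted p under 0.05 and lower in 2, Sesn1 and Trp53 itself, with a median of 0.62. Past the threshold 12 rose and 0 fell. Cdkn1a (chr17:29090976-29100727, plus strand), the inhibitor p21 that stops the cell cycle, rose from 2142, 1868, 1986 and 1744 to 4693, 5337 and 4522, with a log2 fold change of 1.33 with an SE of 0.10 and an adjusted p of 0.000961. Plk3, a stress-responsive kinase, rose from 207, 224, 272 and 240 to 761, 765 and 793, with treated values within a narrow range. Trp53inp2, a factor in autophagy that is also on the autophagy list, rose from 694, 893, 828 and 916 to 1992, 1925 and 1836. Eda2r, a receptor of the tumour necrosis factor family, rose from 301, 380, 319 and 341 to 1284, 797 and 1239. None of these overlapped. Whether each member of the list is a target of p53 in these cells was not tested.

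Phlda3, an inhibitor of AKT, rose from 203, 322, 465 and 422 to 1379, 802 and 1464 and Ccng1, cyclin G1, by a log2 fold change of 1.37. Mdm2, the ubiquitin ligase of p53, had a log2 fold change of 0.96 with an adjusted p of 0.0203, while Bbc3 and Pmaip1, the death genes Puma and Noxa, had 0.32 and 0.36 with adjusted p of 0.171 and 0.243. Gdf15 and Sesn2 are on both the ATF4 and the p53 list. In the BCL2 list 4 of 34 were higher and 5 lower at an adjusted p under 0.05, and Bok, a relative of Bax, rose from 396, 408, 515 and 513 to 1059, 827 and 1282. The p53 list had 6 members higher and 0 lower without the doubted libraries (median 0.55), and 13 to 24 higher with 1 library left out. Ccng1 missed the threshold in the block by line (0.0121).

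The inflammasome list was divided. Gsdmd, the pore protein of pyroptosis, rose from 1544, 1856, 2080 and 1997 to 3449, 4062 and 4956, and Pycard, the adaptor ASC, fell from 3404, 3575, 3652 and 3188 to 1701, 1684 and 1435, a log2 fold change of -1.11 with an SE of 0.09 and an adjusted p of 0.00133. Casp1, the protease that ASC recruits, overlapped, with 1283, 1546, 1479 and 1377 and 986, 874 and 1384. Among 13 calpain genes, inhibitor included, 5 were higher at an adjusted p under 0.05, 6 at an unadjusted one, and 0 passed the threshold. Capn2, a calcium-dependent protease, stood at 105, 194, 516 and 372 and 1171, 605 and 1876 with a log2 fold change of 2.13 and an adjusted p of 0.0343, and its untreated values spread widely. In the block by line Capn2 did pass (0.00719). The 5 calpain genes became 2 to 5 with 1 library left out, 2 of them without untreated line 4, and 0 without the doubted libraries.

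No listed enzyme that removes reactive oxygen directly passed the test in the unpaired fit. Among 18 superoxide dismutases, peroxidases, peroxiredoxins and catalase, limma gave 0 at an adjusted p under 0.05 (6 at an unadjusted p under 0.05), with a median of 0.018. In the block by line 2 were lower and 0 higher at an adjusted p under 0.05. With 1 library left out at most 1 was higher and at most 1 lower. Prdx1, a peroxiredoxin, stood at 8941, 10608, 10647 and 9960 and 10278, 9033 and 12952, and Gpx2, the glutathione peroxidase of the gut, at 6975, 7061, 7988 and 7549 and 9842, 7611 and 10882. NRF2 targets and glutathione genes did move, 17 of 49 higher and 3 lower at an adjusted p under 0.05, with a median of 0.29. Of the 40 with a promoter 13 held the NRF2 letters TGACNNNGC (32.5%), against 14.0% of all promoters and 16.7% of the tested ones. The same letters were held by 10 of 30 on the ATF4 list. Other lists with promoters for at least 80% of members ranged from 0 of 10 (tuft) to 6 of 15 (metallothionein and zinc). Slc7a11 and Chac1 are 2 of the 5 genes of the NRF2 list that rose. The others are Abcc4, a drug and prostaglandin exporter, from 1022, 751, 1128 and 1051 to 2472, 1939 and 2003, Ethe1, a mitochondrial sulfur dioxygenase, from 946, 1344, 990 and 1069 to 2581, 1880 and 2630, and Ggh, which trims folates, from 151, 152, 213 and 189 to 393, 395 and 598. Ethe1 missed the threshold in the block by line (0.018). The count of 17 was 12 to 15 with 1 library left out and 6 without the doubted libraries.

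Hmox1, the haem-degrading NRF2 target, stood at 75, 66, 155 and 131 and 264, 305 and 454 with an adjusted p of 0.012, Gstk1, a glutathione transferase, at 263, 432, 728 and 439 and 888, 991 and 1522 with 0.026, and Vnn1, a pantetheinase, at 163, 337, 585 and 603 and 778, 919 and 1347 with 0.0582. Nqo1, another NRF2 target, had a log2 fold change of 0.41 with an adjusted p of 0.226. In the iron list 6 of 20 were higher and 1 lower at an adjusted p under 0.05, with 0 past the threshold and 14 under 0.05 before adjustment. Fth1, the ferritin heavy chain, stood at 16225, 19508, 18676 and 19704 and 27729, 29413 and 30074 (adjusted p 0.00762, fold below the threshold). Gch1, the first enzyme of tetrahydrobiopterin synthesis, stood at 251, 438, 495 and 625 and 1256, 1139 and 2386 (adjusted p 0.0116). In the block by line Hmox1 (0.00416), Gstk1 (0.00439), Vnn1 (0.00814) and Gch1 (0.00439) passed the threshold, as adjusted p.

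Slc39a4, the zinc importer of the gut, rose from 2148, 2223, 2607 and 2888 to 4577, 5207 and 6121, the 1 gene of 18 on the metallothionein and zinc list to pass. Cyp1a1, the cytochrome induced through the aryl hydrocarbon receptor, rose from 14, 15, 73 and 10 to 255, 218 and 203, although untreated line 3 was well above the other untreated lines. Of 37 nuclear-encoded respiratory chain genes limma gave 0 at an adjusted p under 0.05 (1 at an unadjusted p under 0.05), with a median of -0.0042, and of 10 mitochondrially encoded genes 2 were lower.

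Fetal and injury-associated markers were higher after direct CAP. Of 38 tested among 40 listed 7 rose and 0 fell, 21 were higher and 0 lower at an adjusted p under 0.05, and the median was 1.74. Areg (chr5:91139599-91148432, plus strand), the EGF receptor ligand amphiregulin, rose from 198, 328, 882 and 628 to 3308, 3671 and 6369, with a log2 fold change of 3.29 with an SE of 0.48 and an adjusted p of 0.00512. Each treated value was far above the highest untreated one. Epn3, an endocytic epsin, rose from 678, 626, 728 and 858 to 2136, 1564 and 2436, Krt7, a keratin of simple ducts, from 4450, 4474, 7347 and 5199 to 14603, 10022 and 19208, and Hbegf, another EGF receptor ligand, from 141, 194, 253 and 195 to 443, 366 and 574.

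Several of the best-known markers stood apart between the groups but did not pass. Clu, clusterin, the marker of revival stem cells, stood at 998, 2865, 4602 and 5506 and 16945, 10690 and 15427, a log2 fold change of 2.27 (SE 0.52) with an adjusted p of 0.0226. Ly6a, the surface protein Sca-1, stood at 79, 154, 788 and 241 and 1275, 900 and 2554 (adjusted p 0.0326), and Ptgs2, cyclooxygenase-2, at 10, 13, 70 and 49 and 283, 83 and 338 (adjusted p 0.0328). Clu, Ly6a and Ptgs2 showed no overlap, with untreated line 1 the lowest in each. The list level ran from -0.92 in untreated line 1 to 0.80 in untreated line 3 and from 1.13 to 2.20 after direct CAP. The looser count was 5 of 38 without the doubted libraries, with a median of 1.18, and 10 to 22 with 1 library left out, the lowest without direct CAP line 1. Blocking by line raised the counts to 16 past the threshold and 34 at the looser level (median 2.02), among them Ly6a at an adjusted p of 0.00302 and Ptgs2 at 0.00732. With the untreated labels of lines 1 and 2 exchanged the block gave 31 and 35.

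In the EGF family, Btc, betacellulin, rose from 222, 299, 463 and 406 to 1400, 1268 and 2205 beside Areg and Hbegf, and 5 of 12 tested were higher and 1, the inhibitor Lrig1, lower at an adjusted p under 0.05. Egfr, the receptor, had a log2 fold change of 0.33 with an adjusted p of 0.131. Hippo-YAP genes included 9 of 34 higher and 4 lower. Myof, a membrane repair ferlin, rose from 752, 1314, 1559 and 1507 to 5365, 3216 and 5083, and Wwtr1, the co-activator TAZ, stood at 80, 145, 254 and 204 and 438, 256 and 450 (adjusted p 0.0585). The Hippo-YAP counts ranged from 3 (without untreated line 2) to 13 higher and from 1 (without direct CAP line 4) to 6 lower with 1 library left out, and were 2 and 0 without the doubted libraries.

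Keratins and several junction genes were also higher, with Dsg3 counted on the fetal list too. Of 14 keratins tested 8 were higher and 0 lower at an adjusted p under 0.05, and 2 rose, with a median of 1.09. Krt4 (chr15:101918535-101924735, minus strand), a keratin of stratified mucosa, rose from 81, 248, 322 and 307 to 2229, 1288 and 1843, a log2 fold change of 3.04 with an SE of 0.45 and an adjusted p of 0.00552. Of 13 desmosome genes 7 were higher, with Dsg3 past the threshold. Cldn4, a barrier claudin, rose from 780, 643, 1523 and 1173 to 3193, 3681 and 4297, among 6 of 19 tight junction genes that were higher. Lama5, a laminin chain, rose from 1469, 1522, 1950 and 1315 to 4576, 3005 and 3178, while Hspg2, the proteoglycan perlecan, fell from 3108, 2142, 2319 and 3379 to 720, 971 and 1070. In the actin cytoskeleton list 10 of 42 were higher and 2 lower. Cnn3, an acidic calponin, fell from 4263, 3807, 3762 and 3432 to 1681, 1567 and 924. Muc3, a transmembrane mucin, rose from 208, 201, 353 and 349 to 1377, 1529 and 1352. With 1 library left out, the keratins higher at the looser level numbered 5 to 7, the desmosome genes 2 to 6, the tight junction genes 2 to 6 and the cytoskeleton genes 5 to 14. The desmosome count was lowest without untreated line 2 and the tight junction count without untreated line 1. Without the doubted libraries the 4 counts were 1, 1, 1 and 2, and in the block by line 9, 4, 5 and 14.

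**Figure D4:**
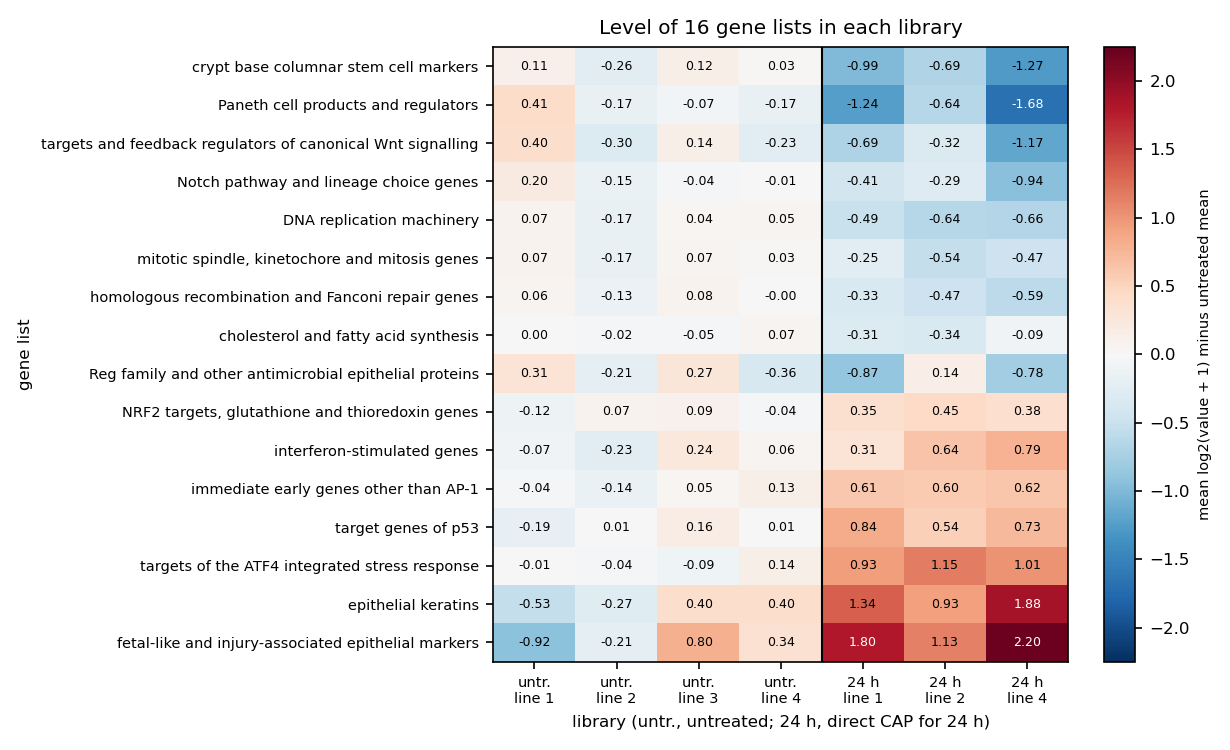
Colour and number give, for 16 gene lists (rows) in each of the 7 libraries (columns, untreated left of the line), the mean log2(value + 1) of the members tested minus the mean over the untreated libraries. Fetal and injury markers range from 1.13 (line 2) to 2.20 (line 4) after direct CAP and Paneth genes from -0.64 (line 2) to -1.68 (line 4), whereas ATF4 targets range from 0.93 to 1.15.

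AP-1 and other immediate early genes, which answer growth factors and stress, were higher. Of 15 AP-1 genes tested 8 were higher and 1 lower at an adjusted p under 0.05, and 4 rose. Fos went from 157, 327, 291 and 218 to 1211, 733 and 1167, a log2 fold change of 2.08 with an SE of 0.27 and an adjusted p of 0.00427, and Fosl1, the Fos relative Fra-1, from 23, 34, 54 and 45 to 205, 121 and 223, with line 2 lowest of the treated in both. Fosb overlapped, with 11, 56, 16 and 10 and 161, 35 and 43, and Jun had a log2 fold change of -0.22 with an adjusted p of 0.287. Of 29 other immediate early genes 13 were higher and 0 lower, with a median of 0.64. Plk2, a kinase of the Plk3 family, rose from 413, 640, 796 and 666 to 2187, 1480 and 1952, and Nr4a1, an orphan nuclear receptor, from 111, 76, 93 and 113 to 229, 242 and 184. Egr1, a zinc finger factor, stood at 275, 389, 346 and 314 and 817, 674 and 490 (adjusted p 0.0125). The phosphatases Dusp1 and Dusp6, which switch off MAP kinases, rose with log2 fold changes of 1.39 and 1.23, among 6 of 19 feedback genes higher and 2 lower. With 1 library left out 5 or 6 AP-1 genes and 7 to 14 of the other immediate early genes were higher, the latter lowest without untreated line 2 or direct CAP line 1, and without the doubted libraries 3 and 2. In the block by line Fos (0.0101) and Nr4a1 (0.027) missed the threshold, and 2 of 4 AP-1 genes kept their call.

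Lipid synthesis genes were lower in 10 of 31 at an adjusted p under 0.05 and higher in 0, with a median of -0.18. Fads1 (chr19:10182888-10196877, plus strand), a desaturase of polyunsaturated fatty acids, fell from 2689, 2730, 2329 and 3448 to 832, 650 and 694, a log2 fold change of -1.94 with an SE of 0.14 and an adjusted p of 0.000961, and its neighbour Fads2 from 4307, 3989, 3608 and 4164 to 1980, 1831 and 1563. The cholesterol enzymes Hmgcs1 and Sqle had log2 fold changes of 0.06 and 0.06, neither with an adjusted p under 0.05. Of 30 PPAR genes 6 were higher and 3 lower. Pparg itself rose from 667, 792, 752 and 909 to 1566, 1280 and 2267, and Cidec, a lipid droplet protein, from 92, 105, 136 and 107 to 253, 484 and 458. The 10 lipid synthesis genes became 5 to 10 with 1 library left out and 3 without the doubted libraries, with a median of -0.26.

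Autophagy and lysosome genes were higher in 12 of 42 (1 without the doubted libraries) and lower in 2, with Ctsl, cathepsin L, rising from 433, 548, 1170 and 963 to 2512, 2302 and 4247. Hk1, hexokinase 1, rose from 773, 494, 563 and 709 to 1333, 1457 and 2221, the 1 gene of 33 on the glycolysis and hypoxia list to pass.

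Interferon-stimulated genes were higher in 11 of 39 and lower in 2 at an adjusted p under 0.05, with a median of 0.55. Oasl1 (chr5:114923240-114937915, plus strand), a relative of the antiviral oligoadenylate synthetases, rose from 176, 156, 195 and 262 to 935, 1272 and 1792, a log2 fold change of 2.73 with an SE of 0.24 and an adjusted p of 0.00153. Irf7, a regulator of interferon genes, rose from 199, 174, 207 and 194 to 367, 567 and 487, and Ddx60, a helicase of RNA sensing, from 49, 45, 64 and 51 to 117, 257 and 338, with line 1 lowest after direct CAP in all of these. Ifitm3 and Ifitm2, membrane proteins that block viral entry, went the other way, from 820, 675, 804 and 711 to 198, 276 and 116 and from 1756, 1291, 1434 and 1243 to 661, 785 and 471. Ifnlr1, the receptor chain for lambda interferon, stood at 284, 358, 352 and 376 and 629, 605 and 783, just under the fold the threshold asks for. Isg15, a ubiquitin-like protein, had a log2 fold change of 1.47 with an adjusted p of 0.207. The 11 higher became 5 to 10 with 1 library left out, 5 of them without untreated line 2 or direct CAP line 4, and 1 without the doubted libraries, with a median of 0.38. Irf7 (0.0107) and Ddx60 (0.0107) missed the threshold in the block by line.

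Among chemokines and cytokines 7 of 27 were higher and 4 lower. Lif, a cytokine of the interleukin-6 family, rose from 122, 130, 194 and 124 to 402, 309 and 382, and Ccl28, a mucosal chemokine, fell from 1109, 844, 1156 and 1127 to 214, 221 and 455. Pigr, the receptor that carries immunoglobulin A, stood at 45836, 39258, 43908 and 43901 and 13590, 28055 and 20673 with a log2 fold change of -1.12 and an adjusted p of 0.0132. The 7 higher ranged from 3 (without direct CAP line 1) to 8 with 1 library left out, were 0 without the doubted libraries and 12 in the block by line.

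Long noncoding RNAs of the nucleus stood apart between the groups at the looser level, 6 of 16 higher and 2 lower. Malat1 was at 13534, 22818, 26502 and 16544 and 63836, 42453 and 40779 (adjusted p 0.0124), Neat1 at 2686, 5863, 5285 and 3594 and 10519, 7935 and 8287 (adjusted p 0.0249). Gm37376, at 607, 1099, 1263 and 788 and 3056, 2029 and 1891, ranked the 7 libraries in the same order as Malat1. It lies at chr19:5801941-5802393, plus strand, inside Malat1 (chr19:5795690-5802672, minus strand) on the other strand, and since the sources used here do not state counting by strand the signals cannot be told apart. Fer1l4, a transcribed ferlin pseudogene, rose from 56, 58, 45 and 159 to 463, 385 and 859. Kcnq1ot1, an imprinted antisense RNA, overlapped, with 1842, 1640, 2810 and 1343 and 2357, 1779 and 963.

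Few members of the remaining lists passed. Pmepa1, an inhibitor of TGF-beta signalling, rose from 167, 154, 231 and 206 to 449, 404 and 514, the 1 of 27 BMP and TGF-beta genes to pass. The Eph, aquaporin, ion transport, polyamine and nitric oxide lists had 0 members past the threshold in limma. Before adjustment 8 of 14, 4 of 7, 12 of 22, 8 of 15 and 9 of 22 were under 0.05. Over all genes tested it was 5658 of 17335. Of 16 Reg family and other antimicrobial genes 6 were lower and 1 higher at an adjusted p under 0.05. Aqp1 stood at 3763, 2681, 2872 and 2806 and 1437, 1908 and 850 (adjusted p 0.0167), Aqp3 at 343, 296, 332 and 152 and 224, 482 and 230, and Aqp5 at 1, 31, 12 and 100 and 283, 15 and 356, the last widely spread after direct CAP. Odc1, the first enzyme of polyamine synthesis, stood at 4088, 4174, 4200 and 3919 and 5763, 5629 and 5718 (adjusted p 0.00568, fold below the threshold).

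Some of the named genes lie side by side, a pattern that was looked at after the values were seen. In the stretch of chromosome 15 from 74714839 to 75272235 (GRCm38), which holds the Ly6 and Gml genes of small anchored surface proteins, all 14 genes tested had a positive log2 fold change (median 2.48), 10 were higher at an adjusted p under 0.05, and 4 rose. Gml, Gml2, Ly6g and Lynx1 rose, Gml from 2, 1, 10 and 12 to 77, 60 and 218 and Lynx1 from 31, 18, 50 and 44 to 146, 165 and 186. Untreated values of Gml, Gml2 and Ly6g were at or under 22. In the stretch of chromosome 7 from 105823264 to 106604035, around the large GTPase gene Gvin1, 9 of 10 tested genes had a negative log2 fold change (median -2.90) and 8 fell. The most abundant, 9130208D14Rik, fell from 37462, 32131, 27107 and 27631 to 5814, 7085 and 2248. Gm20663 and Gm8995 had log2 fold changes of -3.10 and -3.02. Reads shared between near copies in the second stretch cannot be told apart, and these genes may count 1 signal several times.

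The 3 treated libraries lay at different distances from the mean of the 4 untreated ones. Among the 376 genes past the threshold, the library of line 4 lay farthest from the untreated mean for 239, line 1 for 72 and line 2 for 65, and line 2 lay nearest for 213. The median distance on the log2 scale among the genes that rose was 1.57 for line 1, 1.47 for line 2 and 1.77 for line 4, and among those that fell 1.44, 1.31 and 1.78. These distances hold any difference between the lines before treatment, since they are not taken from each line's own untreated library. With 1 treated library per line there is no replicate, and no test was made. Stem cell, Paneth and fetal lists kept that order, with line 2 nearest to untreated, whereas for ATF4 and NRF2 targets and for replication and mitosis genes line 1 was the nearest.

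Direct CAP with the medium replaced after 30 min, in the same 3 lines, gave libraries for comparison with the longer exposure. The time at which the 30 min libraries were collected is not certain from the sources used here. Set against them without regard to line, 0 of 17668 genes tested differed past the threshold (limma, with 3774 reaching p under 0.05 unadjusted). Blocking on organoid line, the same comparison gave 97 genes higher after 24 h (0.549%) and 103 lower (0.583%), and this comparison holds no untreated library with a doubted label.

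Stem cell genes differed between the exposures in the blocked fit. Olfm4 was at 18005, 18466 and 12679 after 30 min and at the values given above after 24 h, a log2 difference of -1.89 (24 h minus 30 min) with an adjusted p of 0.000964. Clca3b was at 18017, 20345 and 15680 (-2.08, 0.000964) and Smoc2 at 5013, 5447 and 3495 (-1.46, 0.000964). Among Paneth genes Mptx1 was at 967, 1521 and 537 (-1.47, 0.00739), while Defa24, at 2421, 4035 and 1949, differed by -0.06 with an adjusted p of 0.812, and Itln1, at 4877, 8562 and 4958, by -0.33 with 0.145. Values in brackets are the log2 difference and its adjusted p.

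Genes of the stress programmes were divided. Chac1 was at 167, 251 and 153 after 30 min (1.89, 0.000964), Slc7a11 at 1414, 1762 and 2746 (1.22, 0.00481) and Fads1 at 2266, 1810 and 1782 (-1.43, 0.000964), all past the threshold for the longer exposure. Areg was at 617, 1067 and 2586 (1.83, 0.0024) and 9130204L05Rik at 32, 175 and 383 (2.31, 0.00492). Plk3, at 409, 433 and 777, differed by 0.58 with an adjusted p of 0.0787, and Pycard, at 2239, 2410 and 1485, by -0.32 with 0.132. Fos was at 1786, 1077 and 1515, in every line above its value after 24 h, with a log2 difference of -0.50 and an adjusted p of 0.0352, which missed the threshold.

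**Figure D5:**
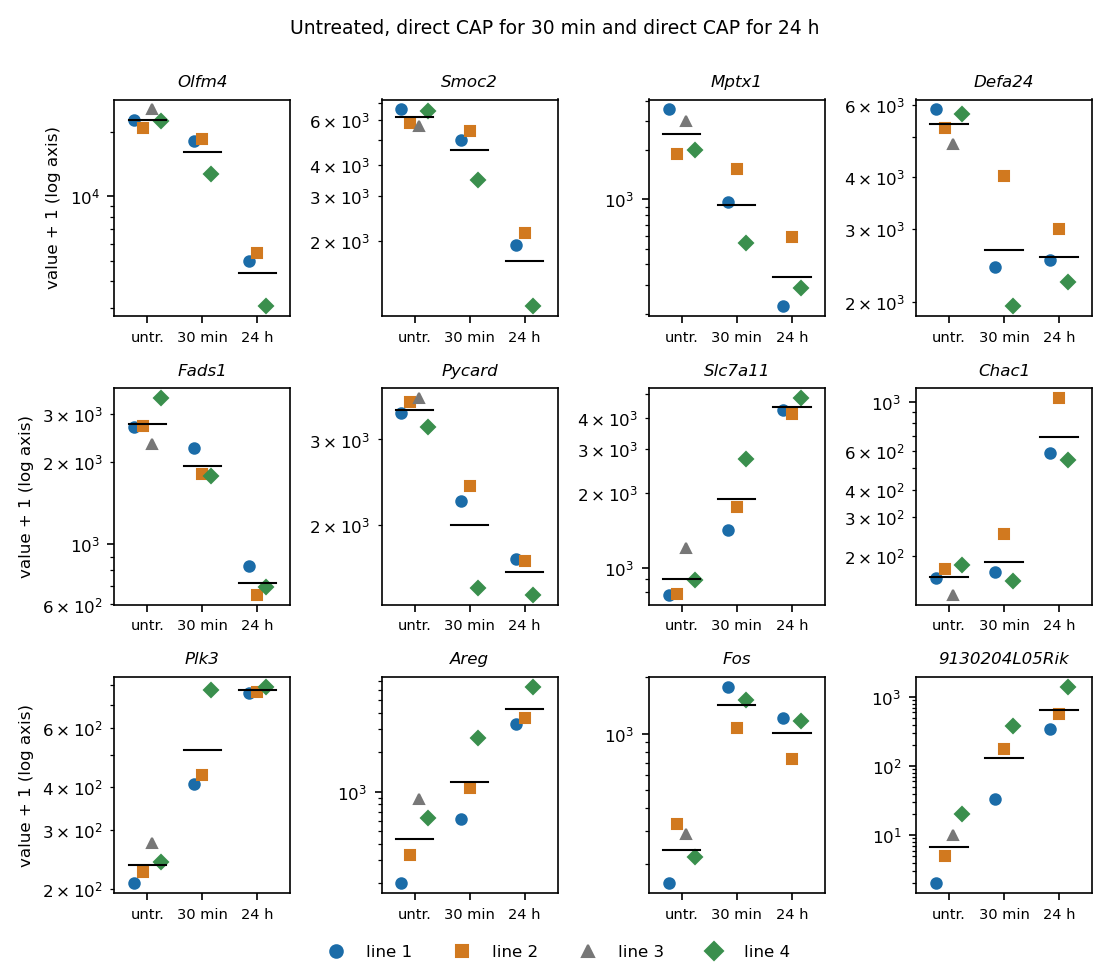
Each panel plots value + 1 on a log axis for 1 gene in the 4 untreated libraries, the 3 libraries of direct CAP for 30 min and the 3 of direct CAP for 24 h, with colour and shape for the organoid line and a bar at the geometric mean. Olfm4, Smoc2 and Chac1 lie closer to the untreated values after 30 min than after 24 h. Defa24 is already near its 24 h values after 30 min, and Pycard lies between. Fos after 30 min lies above its 24 h value in every line.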

How the data were processed

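RNA was taken from duodenal organoids, and libraries (Ovation SoLo kit, paired-end) were trimmed, aligned and counted with Trimmomatic 0.36, STAR 2.5.3a and HTSeq 0.9.1 per the labels, on GRCm38. The authors deposited a score per gene and library, read counts scaled to 20 M reads and rounded up, so no count model was used. Columns of 22 libraries were read. For 3 libraries with direct CAP for 24 h and 4 untreated ones, genes with a value of at least 10 in at least 3 libraries were tested with limma 3.58.1 (R 4.3.3, trend) on log2(value + 1), without the line as a block. Tested on simulated data, it found 200 of 200 changed genes among 16966 with 0 false calls. Those 200 had a median log2 fold change of 1.99 in size. The changed genes were all well expressed, and the simulated libraries held no differences between lines. Their spread was set in advance and not taken from these libraries. The simulation therefore gives neither the power nor the rate of false calls in the real data. Whether smaller differences would be found in these libraries was not tested. The same test without a block and with the organoid line as a block compared 24 h with 30 min. Named genes were the 8 genes that rose most and the 8 that fell most (groups apart, mean of at least 50 in the higher group), up to 4 called members per list and direction (up to 2 abundant ones where none passed), genes the study names, and cell type checks, and some of these are not reported here. A further 31 were chosen after their values were seen, among them Hook1, Mcm6, Trib3, Mdm2, Nqo1, Hmgcs1 and some of the genes with promoters shown. The members and lists were chosen with earlier results of these data known. The alternatives were other scalings, pseudocounts, filters and fits, and each library left out. Labels give replicate numbers by organoid line. Deviations of untreated line 4 correlated with its own treated line, but those of lines 1 and 2 correlated more with each other's line. Promoters are RefSeq's (GRCm38.p6) with 1 chromosome left out, matched by name for 10825 of 17335 genes. Separate replicates are separate organoid lines. Figures used matplotlib 3.10.9.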

Additional observations from a re-analysis of the deposited data

Results flagged for a closer look

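In 16 of 193 named genes checked, 1 of the 4 untreated libraries stood apart from the other 3 by Dixon's criterion, and chance alone gives about 5% of groups. Line 1 was the one apart in 5 of them, with values of 2725 for Tm4sf4, 11723 for Mki67, 2047 for Mycl, 1233 for Kit and 5951 for Axin2. Line 2 stood apart in 5, with 558 for Sytl2, 844 for Ccl28, 56 for Fosb, 790 for Pola1 and 394 for Unc5b. Line 3 stood apart in 3, with 6524 for Klf5, 73 for Cyp1a1 and 194 for Lif. Line 4 stood apart in 3, with 22 for Ly6g, 159 for Fer1l4 and 539 for Nupr1. Of these genes Tm4sf4, Mycl, Sytl2, Ccl28, Cyp1a1, Lif, Ly6g, Unc5b and Fer1l4 were past the threshold with the groups apart. The part of these libraries in the results was not tested beyond leaving each out.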

How the results depend on the processing

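With 1 library left out at a time, the number of genes past the threshold ranged from 34 (without direct CAP line 1) to 377 (without direct CAP line 2), against 376, with 50, 68, 108, 136 and 162 for the others (untreated lines 2, 4 and 1, direct CAP line 4, untreated line 3). All 355 called genes tested in each of these fits kept an adjusted p under 0.05, and 23 were called in all 7. Their direction could not change in these fits, since the groups did not overlap for any called gene. Without both untreated libraries of lines 1 and 2 the number was 0. Quantile normalization gave 418, median-of-ratios scaling 392, a pseudocount of 10 390, no filter 354, a filter at 50 359 and all 7 groups in 1 fit 449. Dropping the minimum fold at an adjusted p under 0.05 gave 2995. Counting once the protocadherin alpha genes with near-identical values, which share exons, gave 363, an alternative chosen after seeing the data. These were 205 higher and 158 lower, against 217 and 159, so the 217 may count 1 protocadherin signal several times. Near copies among the GTPase and alpha-defensin genes were not merged.

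The replicate block (organoid line as a pairing) gave 351 genes, 246 of them shared with the unpaired fit, and with all 7 groups in 1 fit 1114. With the untreated line labels 1 and 2 exchanged, a pairing chosen after seeing the data, the block gave 1286, and 1268 with all 7 groups. By label, libraries of 1 line share an animal, which the data went against for untreated lines 1 and 2. Of the named genes 15 in all lost their call in the block by label and 8 gained one, as given beside them, with S100a11, a calcium-binding protein, also lost (adjusted p 0.0111), and all 23 passed an adjusted p under 0.01 with the exchange. For 24 h against 30 min, 0 genes without the block became 200 with it, and 336 with all 7 groups.

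None of the 108 named genes past the threshold changed direction under the alternatives run. Leaving out libraries could not have changed it, since the groups did not overlap for these genes. Of the named genes that did not pass, 16 changed direction. On the log2 scale and over the fits that leave out 1 library each, P4hb ranged from -0.154 to 0.00601, Hspa8 from -0.137 to 0.0136, Prdx1 from -0.0557 to 0.204, mt-Nd1 from -0.0274 to 0.0932, Rac1 from -0.0894 to 0.00256, Csf1r from -0.00887 to 0.0715, Sis from -0.561 to 0.0691, Aqp3 from -0.237 to 0.314, Kcnq1ot1 from -0.489 to 0.156, Hmgcs1 from -0.198 to 0.237, Mmp7 from -0.0288 to 0.465, Sqle from -0.00974 to 0.175 and the sex-linked Eif2s3y from -1.15 to 4.07. Median-of-ratios scaling turned P4hb to 0.019, Hspa8 to 0.00619, Atp5b to 0.00567 and Rac1 to 0.0287. Without untreated lines 1 and 2 P4hb became 0.0105 and mt-Co1 0.00179. Quantile normalization turned mt-Nd1 to -0.0991 and Hmgcs1 to -0.00526. The replicate block, with or without the exchange and with all 7 groups, turned mt-Nd1 to -0.000512, Mmp7 to -0.0288, Sqle to -0.00917 and Xist to 0.177. The cause was not tested.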

Other observations

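Of the genes with the lowest adjusted p (0.000755), 3 not described above were picked out after their values were seen. Unc5b, a netrin receptor, stood at 522, 394, 543 and 543 untreated and 1850, 2264 and 2000 after direct CAP. Far2, a fatty acyl reductase, stood at 3579, 3212, 3497 and 3566 and 1422, 1379 and 1595, and Pdss1, which makes the side chain of coenzyme Q, at 1756, 1822, 1830 and 1660 and 762, 814 and 718. In all 3 the groups were apart.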
